A study of Homo sapiens with 6 samples.

Results

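The RNA of 9 genes for small GTPases of the Ras branch was followed in MG63 cells, an established human osteosarcoma line. The genes were RAP1A, RAP1B, RAP2A, RAP2B, RAP2C, NRAS, HRAS, RRAS2 and RALA, found by symbol among 61806 genes listed. They were picked in part because RAP1B had the lowest estimate for FTO knockdown among well-read genes, so the shFTO against shNC values of the 9 genes are given as a description. The study knocked down FTO, an RNA demethylase, in MG63 cells with a stably expressed hairpin RNA (shFTO, 3 biological replicates) and set them beside MG63 cells with a control hairpin (shNC, 3 biological replicates), to look for transcripts and pathways under FTO. No drug or second genotype is named in the labels, both groups share the cell line, and the labels name neither the hairpin sequences nor whether each line is 1 clone.

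Ras, Rap and Ral proteins are molecular switches of the inner cell membrane, active when bound to GTP and silent when bound to GDP. Exchange factors load them with GTP, and GTPase-activating proteins speed its hydrolysis. NRAS and HRAS pass growth factor signals to the RAF, MEK and ERK kinases. Rap1 proteins control integrin adhesion and cell junctions, Rap2 proteins engage kinases such as MAP4K4, and Ral proteins steer the exocyst, which tethers secretory vesicles. In cells of the bone lineage this network is known for relaying growth factor and matrix signals.

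Values were deposited as FPKM, reads scaled by exon length and by the library's total, and the whole reads behind them could be recovered. Depth was low, at 93629 to 106245 reads counted to genes in each of the 6 libraries. The groups had no gap between them (shNC 93629 to 100992, shFTO 94083 to 106245). These totals equal the summed reads of all genes, so the number of reads sequenced or mapped is not known. A count of 0 was taken to allow up to 3 reads, for counting error only. FTO itself was at 0 in all 6 libraries, which allows 1.32 to 1.5 FPKM, so the knockdown could not be checked on its target. Of 12 mesenchymal and bone markers 9 had reads, and the bone genes ALPL, BGLAP and SPP1 were at 0 throughout. The summed level of these 12 markers ran from 76.9 to 97 per 100000 reads in shNC and from 95.1 to 103 in shFTO. Epithelial markers had 8 reads in all (2 of 6 genes, EPCAM and CDH1 at 0, summed level 0 to 1.07 in shNC and 0 to 3.77 in shFTO), endothelial markers 1 read (1 of 5 genes), and blood and neural markers none.

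The 9 coding sequences end in tails that set the family members apart and carry the signal for the lipid anchor. The last 20 codons of each, stop codon included, are shown because this tail, the hypervariable region, tells near relatives apart. They were read from GENCODE release 29 transcripts (GRCh38), 5′ to 3′ on the coding strand, with the last 5 codons in capitals (the CAAX box, where the lipid is attached, and the stop codon).
RAP1A: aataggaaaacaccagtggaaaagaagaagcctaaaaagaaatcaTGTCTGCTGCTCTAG
RAP1B: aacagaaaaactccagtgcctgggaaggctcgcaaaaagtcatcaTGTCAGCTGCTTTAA
RAP2A: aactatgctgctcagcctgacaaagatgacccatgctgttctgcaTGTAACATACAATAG
RAP2B: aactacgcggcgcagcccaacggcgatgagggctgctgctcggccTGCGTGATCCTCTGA
RAP2C: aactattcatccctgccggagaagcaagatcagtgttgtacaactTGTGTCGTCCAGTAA
NRAS: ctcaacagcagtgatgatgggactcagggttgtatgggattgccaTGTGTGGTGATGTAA
HRAS: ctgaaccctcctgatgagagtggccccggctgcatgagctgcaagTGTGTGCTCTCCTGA
RRAS2: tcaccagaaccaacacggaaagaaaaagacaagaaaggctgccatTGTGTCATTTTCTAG
RALA: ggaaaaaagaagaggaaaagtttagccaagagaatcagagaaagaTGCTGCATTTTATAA

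Each tail lies in 1 coding exon. On the plus strand, RAP1A ends at chr1:111709176-111709235, RAP1B at chr12:68657128-68657187, RAP2A at chr13:97464383-97464442, RAP2B at chr3:153163186-153163245 and RALA at chr7:39706186-39706245. On the minus strand, RAP2C ends at chrX:132214168-132214227, NRAS at chr1:114708535-114708594, HRAS at chr11:532636-532695 and RRAS2 at chr11:14279337-14279396.

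RAP1A and RAP1B are the closest pair of the adhesion branch by function, and each has a coding sequence of 555 bases. They differed at 95 bases, of which 72 were at the last position of a codon, and aligned without gaps at 82.9% identity. Their longest shared run was 26 bases. The stretch from coding base 478 to 537 held 21 of them, the most among windows of 60 bases taken codon by codon, marked in capitals.
RAP1A: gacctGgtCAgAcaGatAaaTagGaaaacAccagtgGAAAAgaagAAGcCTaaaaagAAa
RAP1B: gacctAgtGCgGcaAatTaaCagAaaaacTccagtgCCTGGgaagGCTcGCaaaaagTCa

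The longest run shared by any pair of the 9 coding sequences was 77 bases, between RAP2A and RAP2B, whose identity was 84.4%. The reads of these 2 genes are therefore the least certain to be told apart where they fall in that run. NRAS and HRAS shared 73% of coding bases and RRAS2 and RALA 57.1%. The lowest identity was 49.4%, between RAP2B and RALA.

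**Figure D1:**
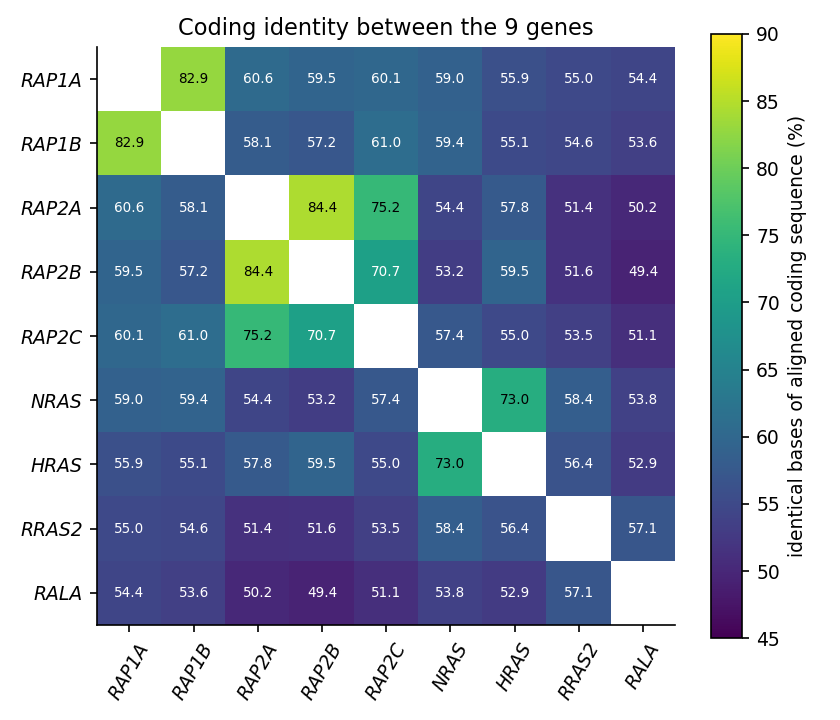
Identity of the coding sequences of the 9 genes, as the percentage of aligned bases that are the same, for every pair (rows and columns are genes, colour and printed number give the percentage). The RAP1 pair at 82.9% and RAP2A with RAP2B at 84.4% stand above all other pairs.

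No reads were counted for processed pseudogene copies. Of 7 pseudogenes named after RAP1A, RAP1B, RAP2C or RRAS2, all had 0 reads over the 6 libraries, including RAP1BP3, which shares a run of 81 bases with the RAP1B transcript, and RRAS2P1, which shares 166 with RRAS2. Genes that overlap the members on the map, 13 in all and among them RAP2C-AS1 on the strand opposite to RAP2C, also had 0 reads. The libraries were strand-specific per the series' design text. Neither the read length nor whether counting used the strand is stated. How reads matching both a gene and its copy were counted is not stated either. The 0 counts therefore cannot show whether such reads arose.

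RAP1B, a Rap1 protein known for integrin signalling in adhesion (ENSG00000127314, GRCh38 chromosome 12, 68610855 to 68671901), was the best-read of the 9 genes. It stood at 157.8, 128.12 and 126.2 FPKM in shNC replicates 1, 2 and 3 and at 122.89, 130.62 and 87.94 FPKM in shFTO replicates 1, 2 and 3. The highest library was shNC replicate 1 and the lowest shFTO replicate 3, and the other 4 libraries lay between 122.89 and 130.62 FPKM, so the groups overlapped. These values came from 252, 219 and 200 reads in shNC and 221, 208 and 154 in shFTO, 1254 in all. By reads RAP1B ranked 82 and by mean FPKM 217 among all genes listed. These ranks describe these libraries and were not compared with other MG63 data. In the same libraries ACTB (ENSG00000075624) had a mean of 12.5 reads a library and GAPDH (ENSG00000111640) 14.7. VIM, a mesenchymal marker, had 85 reads in all. Why these genes had fewer reads than RAP1B was not tested.

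The mean of RAP1B was 137 ± 17.7 FPKM (SD, n = 3) in shNC and 114 ± 22.7 in shFTO, a ratio of 0.829. On log2(FPKM + 1) the difference, shFTO minus shNC, was -0.28 (SE 0.21) with a 95% interval from -0.71 to 0.14. It was -0.11 without shFTO replicate 3 and -0.18 without shNC replicate 1, and it lay between -0.33 and -0.39 without any other library. The size of the difference thus rested on these 2 libraries. Upper-quartile scaling gave -0.17 for RAP1B, and it moved the median of the 705 genes with a mean of 10 or more reads a library from 0 to 0.11. In bulk RNA, less RNA per cell and fewer cells that carry a transcript cannot be told apart.

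The reason given for picking RAP1B named no fit. RAP1B had the lowest estimate among well-read genes both in limma and in a fit to recovered reads. In the fit to recovered reads, each gene's spread is drawn toward that of all genes. There its log2 difference was -0.28 (SE 0.11), the lowest of 150 genes with a mean of 100 or more reads a library, whose median absolute difference was 0.07. The next in that order were RC3H2 at -0.23 and TNRC6A at -0.23, both of them genes of messenger RNA decay, and CPEB2, a translation regulator, at -0.22. The reads of RAP1B varied within groups by 5.74 times the counting noise, against a median of 1.52 over 1021 genes, and 23 genes had a higher value. With its own spread in place of the moderated one, the SE of RAP1B was 0.196.

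**Figure D2:**
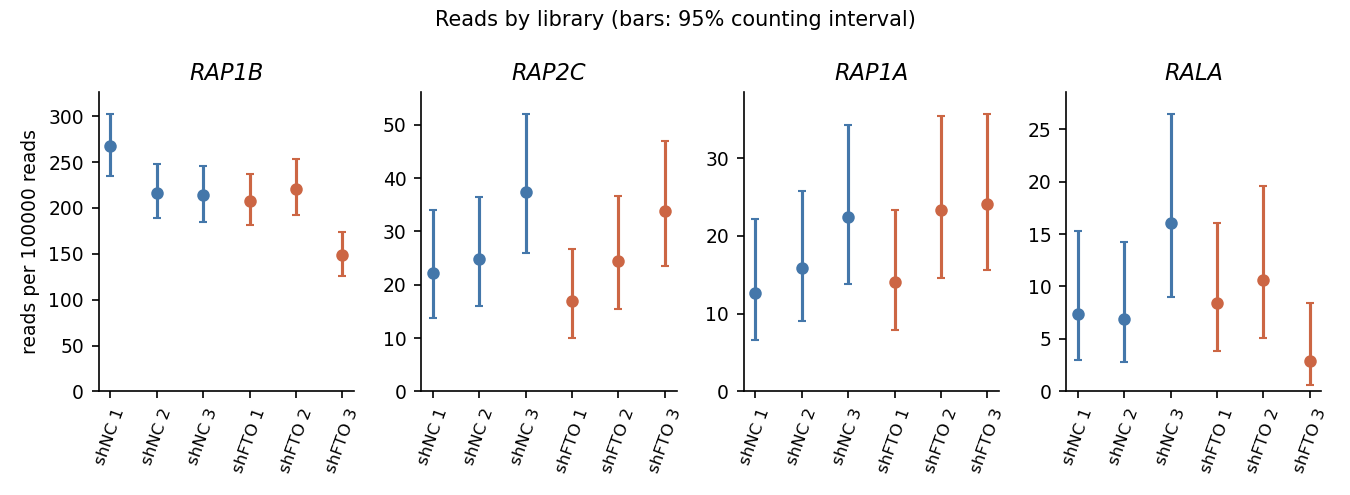
Reads per 100000 reads of RAP1B, RAP2C, RAP1A and RALA in each library (points; bars are exact 95% Poisson intervals, which cover counting error only; each panel has its own axis from 0; blue shNC, orange shFTO). RAP1B runs from 149 in shFTO replicate 3 to 267 in shNC replicate 1, and the groups overlap in every panel.

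RAP1A, the other Rap1 gene (ENSG00000116473, chromosome 1, 111542218 to 111716691), was read far less. Its values were 22.99, 28.64 and 40.54 FPKM in shNC and 25.52, 42.27 and 43.68 FPKM in shFTO, from 49 and 62 reads. Replicate 1 was the lowest and replicate 3 the highest in both groups, and the groups overlapped. The log2 difference of RAP1A was 0.27 (SE 0.36, 95% interval -0.46 to 1), on the other side of 0 from that of RAP1B. It ran from 0.08 without shNC replicate 1 to 0.51 without shFTO replicate 1, and the contrast between the 2 genes was not tested.

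Over the 6 libraries RAP1B had 11.3 times the reads of RAP1A but 3.7 times its mean FPKM, since the exonic length given for RAP1B is 16926 bases and that for RAP1A 5532. In the GENCODE transcript used here for RAP1B, 12652 of 13438 bases are 3′ untranslated sequence, against 4290 of 5024 for RAP1A. FPKM divides by the exons of all transcripts together, so a level per length depends on that choice. RAP1A made up from 4.55% of Rap1 reads in shNC replicate 1 to 14% in shFTO replicate 3. In every library RAP1B was above RAP1A per length, by 3.11 to 6.86 times in shNC and 2.01 to 4.82 times in shFTO.

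RAP2C, a Rap2 protein that acts on the cytoskeleton through kinases (ENSG00000123728, chromosome X, 132203024 to 132219480), was second by reads and by level. It had 54.05, 60.11 and 90.78 FPKM in shNC and 41.14, 59.36 and 82.15 in shFTO, from 81 and 76 reads. Replicate 3 was the highest and replicate 1 the lowest in each group, as for RAP1A, and the groups overlapped widely. The log2 difference was -0.18 (SE 0.29), with a 95% interval from -0.77 to 0.4. It was 0.04 without shNC replicate 3 and 0.07 without shFTO replicate 1, so that its sign depended on the libraries kept. Upper-quartile scaling gave -0.07 for RAP2C.

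RAP2A (ENSG00000125249, chromosome 13, 97434169 to 97469128), whose protein shares the Rap2 effectors, had 7.54, 8.8 and 7.6 FPKM in shNC and 10.04, 17.01 and 6.88 in shFTO. These were 4, 5 and 4 reads and 6, 9 and 4 reads, with 1 library, shFTO replicate 2, above the rest. Its log2 difference was 0.37 (SE 0.6), and it was 0.06 without shFTO replicate 2 and 0.65 without shFTO replicate 3. RAP2B (ENSG00000181467, chromosome 3, 153162226 to 153170627), the remaining Rap2 gene, had 2, 0 and 0 reads in shNC and 1, 2 and 0 in shFTO. Its levels of 0 to 2.53 FPKM lay under the 3.36 to 3.81 FPKM that 3 reads would give. Per 100000 reads, the 3 Rap2 genes together came to 33.3 ± 7.23 for shNC and 32.5 ± 7.77 for shFTO, most of it RAP2C.

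RALA, which controls exocyst-driven delivery of membrane (ENSG00000006451, chromosome 7, 39623565 to 39708120), had 20.73, 19.37 and 44.76 FPKM in shNC and 23.67, 29.7 and 8.1 in shFTO. In reads this was 7, 7 and 15 against 9, 10 and 3. The extremes were both in replicate 3, high in shNC and low in shFTO. The log2 difference was -0.52 (SE 0.47, 95% interval -1.47 to 0.43). It was -0.14 without shNC replicate 3 and 0.01 without shFTO replicate 3. RALB, the second Ral gene, had 3 reads in shNC and 1 in shFTO.

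The classical Ras genes among the 9 were near the limit of detection. NRAS (ENSG00000213281, chromosome 1, 114704469 to 114716771) had 4.9, 2.29 and 0 FPKM in shNC and 0, 9.83 and 4.47 in shFTO, or 3 and 6 reads. HRAS (ENSG00000174775, chromosome 11, 532242 to 537321) had 1 read in all, in shFTO replicate 2. RRAS2, also known as TC21 (ENSG00000133818, chromosome 11, 14277922 to 14364506), had 1 read in shNC replicate 3 and 1 in shFTO replicate 1. A count of 0 allows up to 7.41 FPKM for NRAS, 13.2 for HRAS and 9.27 for RRAS2, so a library at 0 does not exclude a level up to that limit. No fold change is given for these 3 genes or RAP2B, whose estimates turn on single reads.

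**Figure D3:**
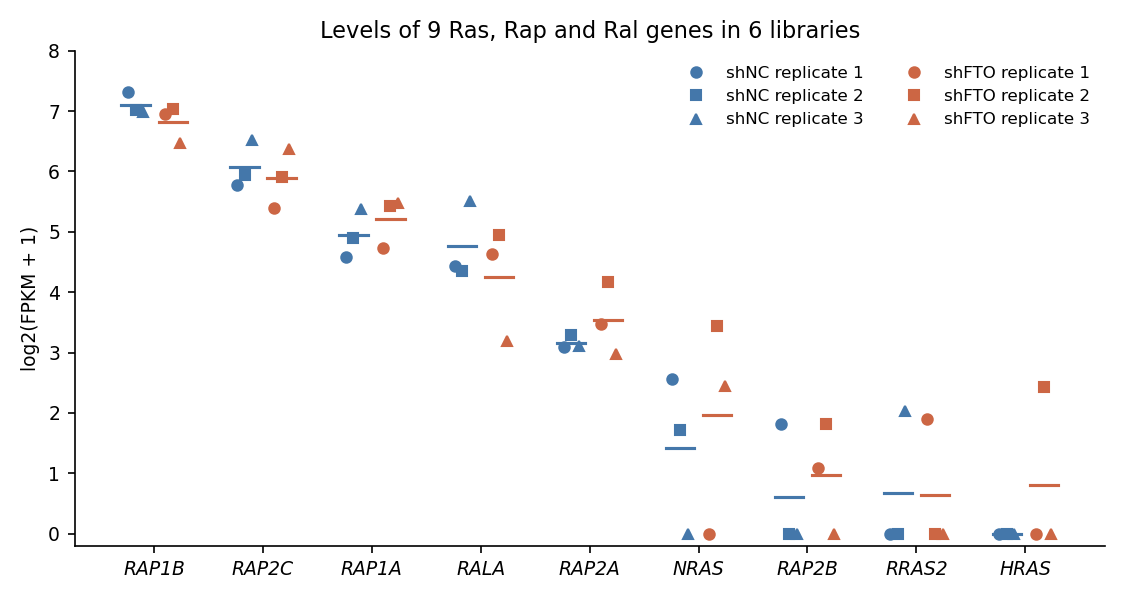
Level of each of the 9 genes as log2(FPKM + 1) in the 6 libraries (points; shape marks the replicate, blue shNC, orange shFTO; lines are group means of the plotted values), ordered by mean FPKM. RAP1B is highest, RAP2B is at 0 in 3 libraries, RRAS2 in 4 and HRAS in 5, and the 2 groups overlap for all 9 genes.

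By mean FPKM over the 6 libraries the order was RAP1B at 126 ± 22.3 (SD, n = 6), RAP2C at 64.6 ± 18.4, RAP1A at 33.9 ± 9.24, RALA at 24.4 ± 12.2, RAP2A at 9.65 ± 3.78 and NRAS at 3.58 ± 3.71. RAP2B, RRAS2 and HRAS followed at 1.03, 0.968 and 0.728 FPKM. The ranges of each pair of neighbours in this order overlapped across libraries, as for RAP1B, whose lowest library at 87.94 lay under the highest of RAP2C at 90.78. Within a library, however, RAP1B was above RAP2C and RAP2C above RAP1A in 6 of 6 libraries. RAP1A was above RALA in 5 of 6. RALA was above RAP2A and RAP2A above NRAS in 6 of 6, but these orders rest on few reads. In shFTO replicate 3, RALA was above RAP2A per length with 3 reads against 4, and NRAS had 0 to 4 reads a library. Without division by length, RAP1B stood clear of RAP2C, at 149 to 267 against 16.9 to 37.4 per 100000 reads.

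All 9 genes together had 1622 reads, 0.274% of all reads counted to genes. RAP1B held 77.3% of them, from 69.1% in shFTO replicate 3 to 84% in shNC replicate 1. The sum was 294 ± 23.8 per 100000 reads in shNC and 256 ± 40.5 in shFTO. Without RAP1B it was 61.8 ± 16.8 and 63.1 ± 14.5, so the mean of the sum was lower in shFTO with RAP1B and not without it.

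On log2(FPKM + 1), with Benjamini-Hochberg adjustment over 4932 genes, limma called 0 of the 9 genes, none even at an unadjusted p under 0.05 (0 of 9). The background was 0.0406% of genes called, and since the contrast was used to pick the genes nothing is read from the count. The filter, a mean of at least 1 FPKM in a group, was passed by all 9 genes, HRAS and RAP2B through shFTO alone and RRAS2 through shNC alone. Limma-voom on recovered reads called 0 of 9 (1 at an unadjusted p under 0.05) against a background of 0.101% called (0.0203% higher and 0.0811% lower in shFTO), with 266 of 4932 genes under an unadjusted 0.05. The quasi-Poisson fit to recovered reads called 0 of 5 (1 at an unadjusted p under 0.05) against a background of 0%, with 54 of 1021 genes under an unadjusted 0.05. The gene under 0.05 was RAP1B in both, the gene picked on this contrast. The groups of libraries did not overlap for 0 of the 9 genes, against a background of 6.59% of genes tested.

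**Figure D4:**
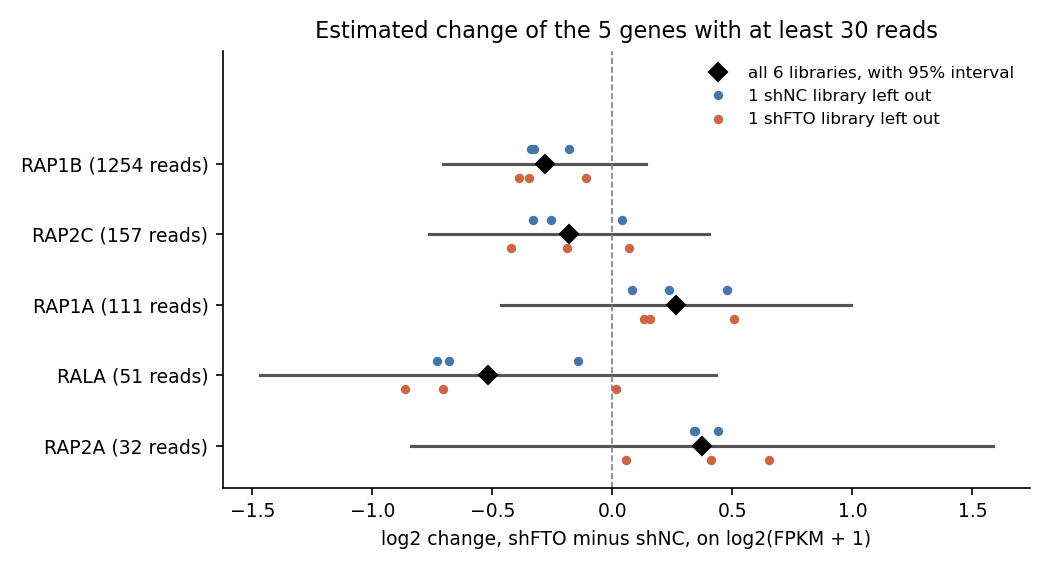
Log2 difference, shFTO minus shNC, on log2(FPKM + 1) for the 5 genes with at least 30 reads (diamonds with 95% limma intervals; small points leave out 1 library, blue shNC, orange shFTO). Every interval includes 0, and the points for RAP2C and RALA reach both sides of 0.

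**Figure D5:**
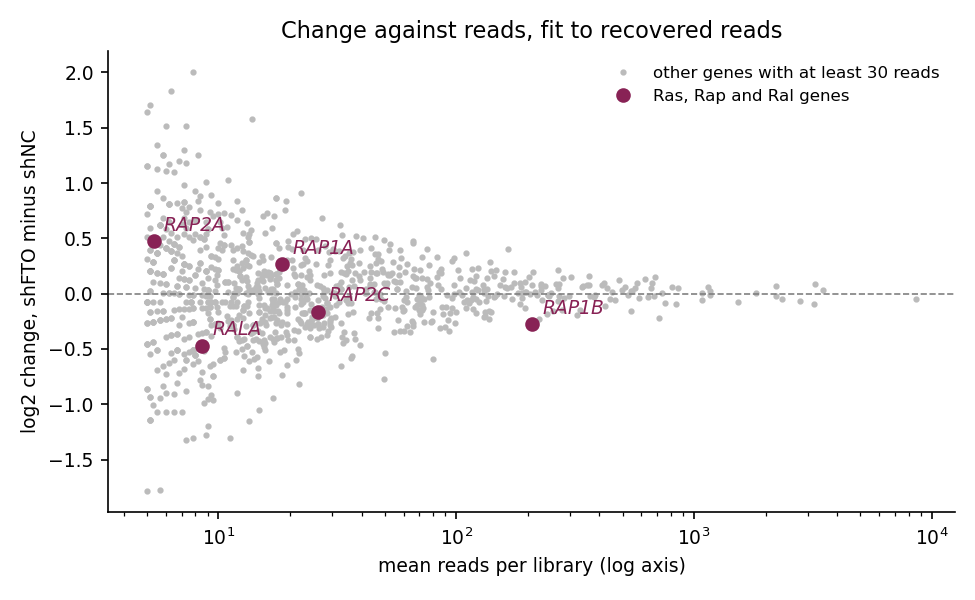
Log2 difference, shFTO minus shNC, in the fit to recovered reads against mean reads per library (log axis) for 1021 genes with at least 30 reads; labelled points are the 5 Ras, Rap and Ral genes among them. The spread of estimates narrows with reads, and RAP1B lies at the lower edge among genes with as many reads.

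The rest of the pathway was read from 9 lists of 179 other genes, chosen by function. Reads were found for 96 of them, 12 had a mean of 10 or more reads a library, and 74 could be tested. In limma 0 rose and 0 fell, with a smallest adjusted p of 0.768. An unadjusted p under 0.05 was found for 3, against 190 of 4932 over all genes tested. The median log2 difference was 0.19, against 0.00 over all genes tested. Most of the 74 genes had a mean under 10 reads a library, so this median rests on few reads and no shift is read from it. Limma-voom called 0 of 74 (5 at an unadjusted p under 0.05, against 266 of 4932 genes). The fit to recovered reads called 0 of 19 (1 at an unadjusted p under 0.05, against 54 of 1021 genes). The 3 genes of limma, of which DUSP5 and FOSL1 were chosen after their values were seen, were the receptor gene MET with 13 reads in shNC and 1 in shFTO, DUSP5, a phosphatase of ERK, with 2 and 8, and FOSL1, an AP-1 transcription factor, with 0 and 4. All had adjusted p values in limma of 0.768 or 0.772.

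Upstream of Ras, 9 of 21 receptor and adaptor genes were tested and 0 called, with 5 estimates above 0 and 4 below. CRK, an adaptor that recruits exchange factors for Rap1, had the most reads, at 315.57, 345.98 and 254.92 FPKM in shNC and 268.66, 340 and 283.02 in shFTO. Its log2 difference was -0.03 (SE 0.15, limma adjusted p = 0.952). Of 20 exchange factors 6 were tested and 0 called. SOS1, which activates Ras at receptors, had 11.7 ± 1.71 and 9.77 ± 3.61 FPKM, RGL1, an exchange factor for Ral, 26.2 ± 5.27 and 24 ± 5.61, and RAPGEF2, one for Rap, 3.9 ± 1.31 and 5.54 ± 5.85.

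Of 19 genes for GTPase-activating proteins, 10 were tested and 0 called, 6 with estimates above 0. RALGAPB, the shared subunit of the complexes that switch off Ral, had 23.5, 36.84 and 28.75 FPKM in shNC and 40.24, 47.12 and 40.56 in shFTO. Every shFTO library was above every shNC library, a separation found in 9.79% of genes with a mean of 10 or more reads a library (69 of 705). The log2 difference of RALGAPB was 0.53 (SE 0.34, limma adjusted p = 0.772). RASA1, which switches off Ras, had 61.9 ± 13.5 and 70.4 ± 12.1 FPKM.

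Downstream, 5 of 10 genes of the RAF, MEK and ERK cascade and 8 of 23 genes for other effectors were tested and 0 called in either list. MAP4K4, a kinase that binds Rap2, had 54.07, 52.99 and 48.23 FPKM in shNC and 62.18, 59.55 and 59.81 in shFTO, again without overlap. Its log2 difference was 0.22 (SE 0.27, limma adjusted p = 0.783). In all, 2 of the 12 pathway genes with a mean of 10 or more reads a library had groups that did not overlap, RALGAPB and MAP4K4. Over all genes read that often it was 69 of 705 (9.79%), and with 12 genes nothing is read from the count. FLNA, an actin cross-linker that binds RalA, had 11 ± 7.36 and 11.6 ± 1.77 FPKM, and TLN1, the integrin activator downstream of Rap1, 7.34 ± 2.73 and 10.5 ± 4.25.

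Genes for the lipid modification of Ras proteins and their delivery to membranes gave 0 calls among 9 tested of 18. ZDHHC9, part of the enzyme that adds palmitate to Ras, had 31.7 ± 2.95 and 37.4 ± 8.86 FPKM. Among 20 feedback and output genes of ERK, 14 were tested and 0 called, 7 with estimates above 0 and 7 below. SPRED2, an inhibitor of Ras signalling, had 21 and 10 reads, and CCND1, encoding cyclin D1, had 13 and 8.

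Beside the 9 genes, 27 further Ras family genes were listed, of which 21 were at 0 in every library, 5 were tested and 0 were called. RHEB, the activator of mTOR complex 1, had 17 and 15 reads. DIRAS1, a growth-restraining Ras relative, had 0 and 3, all in shFTO replicate 2.

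The genes whose pattern over the 6 libraries was most like that of RAP1B were ranked by Pearson r on log2(FPKM + 1) among 149 genes with a mean of 100 or more reads a library. They were YBX1, an mRNA-packaging protein gene (r = 0.968, n = 6 libraries), RC3H2 (0.953), SYNCRIP, an RNA-binding protein gene (0.933), SET, a histone chaperone gene (0.865), and TNRC6A, of the miRNA silencing complex (0.846). For RAP2C, searched against 150 genes, they were ETF1, the translation release factor gene (r = 0.965), PSME3, a proteasome activator gene (0.961), SETD5 (0.854), CNBP (0.848) and a gene listed as ENSG00000232499 (0.839). These values were the highest of many and rest on 6 points that share each library's total, so they are given as a ranking with no test. The group difference is part of the pattern, and RC3H2 and TNRC6A were also the neighbours of RAP1B in the order of estimates above.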

How the data were processed

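RNA from MG63 cells was made into poly(A)-selected libraries, 3 per group, per the labels' protocols. Per the submitters' processing notes, which give no order or roles, the build was GRCh38 and the tools were HISAT2 2.2.1, StringTie 1.3.3b, HTSeq 0.6.1, DESeq2 1.50.2 and FastQC 0.10.1. The authors deposited 1 FPKM value for each gene and library, with 2 decimals, beside each gene's exonic length. Columns marked NC or sh with a number were matched to shNC and shFTO replicates by name.

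FPKM times length gave whole reads within 0.05 read for 100% of values above 0 at the library totals found between 20000 and 200000. Genes averaging 1 FPKM or more in either group (4932) were tested on log2(FPKM + 1) in limma 3.58.1 under R 4.3.3, with a trended, robust prior, and called at an adjusted p under 0.05. These folds understate changes near 1 FPKM. The quasi-Poisson fit took genes with at least 30 reads, with moderated dispersion. Limma, limma-voom and the quasi-Poisson fit, each at its main setting, were run on simulated data, and the outcome is not given here. The other alternative settings were not simulated. Coding sequences came from GENCODE release 29 (the principal transcript, longest where several), aligned globally under Python 3.11.15.

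The members and lists were chosen with earlier results of these data known. Named were the 9 genes, up to 4 genes with the most reads in each list, and the 5 genes most like RAP1B and RAP2C. Not every gene the rule takes is reported here. Alternatives were a pseudocount of 0.1, other filters and scalings, limma-voom, the fit to recovered reads, a replicate block and each library left out.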

Additional observations from a re-analysis of the deposited data

How the results depend on the processing

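The count of called genes over the series, 2 in limma, depended on the setting, and the cause was not tested. It was 7 with a pseudocount of 0.1, 9 with no filter, 4 with upper-quartile scaling (2 higher and 2 lower, against 0 higher and 2 lower) and 5 in limma-voom, and it was 0 among the 705 genes with a mean of 10 or more reads a library (31 at an unadjusted p under 0.05) and 0 in the fit to recovered reads (54 at an unadjusted p under 0.05). Leaving out 1 library gave 2 to 9. With a replicate block it was 17, but same-numbered libraries did not deviate together (r = -0.003, 0.039 and -0.012 over 705 genes), so the numbers were not taken to pair the libraries. None of the Ras, Rap and Ral genes tested (3 to 9 of 9, by setting) and none of the pathway genes tested (12 to 96 of 179) was called in these settings, the replicate block included. The sign of the estimate turned without 1 library for RAP2C, RALA, NRAS and RRAS2, and for RRAS2 also with upper-quartile scaling. The log2 ratio of the summed reads of the 9 genes, -0.2, was 0.029 without RAP1B, whose reads make up most of the sum, and ran from -0.32 to -0.09 without 1 library. In the order of levels, 0 neighbours had ranges apart by FPKM and 1 did by reads, since division by length brings RAP1B nearer to RAP2C. At this depth the limma interval for RAP1B lay within a 2-fold difference either way, also without any 1 library. RAP1B was picked on this contrast, so this is a description, and no size of difference is taken as excluded. The interval for RAP2C reached -1.09 without shFTO replicate 3. That for RAP1A ran up to 1 with all libraries, and to 1.29 without shFTO replicate 1 or without shNC replicate 3. Those for RALA and RAP2A held a 2-fold difference. The exact Poisson intervals and the limits from 3 reads cover counting error only.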
